A study of Macaca nemestrina with 58 samples.

Results

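The genes described here are interferon-stimulated genes and antiviral restriction factors, taken from a list of 45. A gene was measured by the probe set whose only gene symbol in the array annotation was that gene, and by the brightest such probe set where there were several. Of the 45 genes, 32 had such a probe set, and all 32 were above the filter on low signal that left 11199 named genes in all. The other 13 are not analysed here: IRF9, HERC5, USP18, IFIT5, IFI6, IFI44L, EIF2AK2, RSAD2, IFITM2, IFITM3, SAMHD1, SAMD9 and PSMB9. The gene called DDX58 here carries its current symbol, RIGI, on the array.

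The samples were vaginal pinch biopsies of 15 pig-tailed macaques (Macaca nemestrina), read on 58 Affymetrix arrays. The probes were designed on another macaque, the rhesus, and so read transcripts of a related species. Each animal was first sampled untreated, in a named phase of its menstrual cycle: 10 samples came from the early and 5 from the late follicular phase, 4 from the early and 9 from the late luteal phase, and 13 animals gave 2 baseline samples and 2 gave 1. Then 9 animals received DMPA (depot medroxyprogesterone acetate, an injected progestin) at labelled doses of 0.5, 1.5 or 2.5 without a unit, and were sampled at 1D4 (8 animals) and 2D2 (all 9), as the labels call the times. The other 6 received LNG, the label of a combined oral contraceptive arm, with 3 animals labelled High and 3 Low and 6 samples each at the times labelled 5th and 7th. The study's design text places the treated samples 5 weeks after the first contraceptive dose or 2 weeks after the second DMPA injection. What (A-) means, which stands in the names of 5 of the 12 arrays after LNG, is not known here. Treated samples always followed the baseline of the same animal, with no untreated animals beside them, so an effect of the drug cannot be told apart from that of time or of the earlier biopsies. Values are array signals on a log2 scale, on which a difference of 1 is a doubling; changes are means from a linear model with the animal as a block, given with 1 standard error, and a gene passed at an adjusted p under 0.05 (limma, Benjamini-Hochberg over 31624 probe sets).

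Type I and type III interferons are secreted when a cell senses viral nucleic acid. They act through receptors and JAK kinases, and the signal switches on the interferon-stimulated genes. Products of these genes sense viral RNA, tag proteins, block viral translation or entry, and present antigen, and many epithelia keep a low level of them running without infection. Interferon kappa is made by keratinocytes and keeps such a tone in squamous epithelium. Restriction factors such as TRIM5, MX2, BST2 and SLFN11 act on retroviruses, which is why their level in vaginal tissue is of interest where HIV exposure and hormonal contraception meet.

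The markers of the labelled tissue were present. The squamous keratins KRT13 and KRT4 had a median log2 signal of 14.01 and 13.69 over the 28 baseline samples, with lowest values of 13.27 and 11.82. Array medians lay between 6.07 and 6.25. At 2D2, 15 of 16 measured markers of the upper squamous layers fell, with a median change of -3.60, and the mean of these markers in a sample ranged from 9.42 to 13.03 at baseline and from 7.48 to 12.26 at 2D2. KRT13 was the marker that did not pass (-0.40, SE 0.20, adjusted p = 0.123). The GAPDH control probe sets gave a 3' minus 5' difference, a measure of RNA integrity in which a larger value means more 5' loss. It ranged from 1.29 to 2.63 at baseline and from 1.39 to 3.95 at 2D2. In these bulk samples, fewer cells of a type and less RNA per cell cannot be told apart.

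After DMPA, at 2D2, 13 of the 32 genes fell and 2 rose. Of the 11199 named genes, 14.1% fell and 17.2% rose at the same threshold. The median change of the 32 genes was -0.38, beside 0.05 for all named genes, and 23 of the 32 changes were below 0, beside 44.4% of all named genes. The genes that fell were ISG15, MX2, HERC6, MX1, IFI27, DDX58, OAS1, IRF7, IFIT1, OAS3, IFI44, BST2 and DDX60, and the genes that rose were SLFN11 and IFITM1. The fall of ISG15 was the largest and that of DDX60 the smallest.

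**Figure D1:**
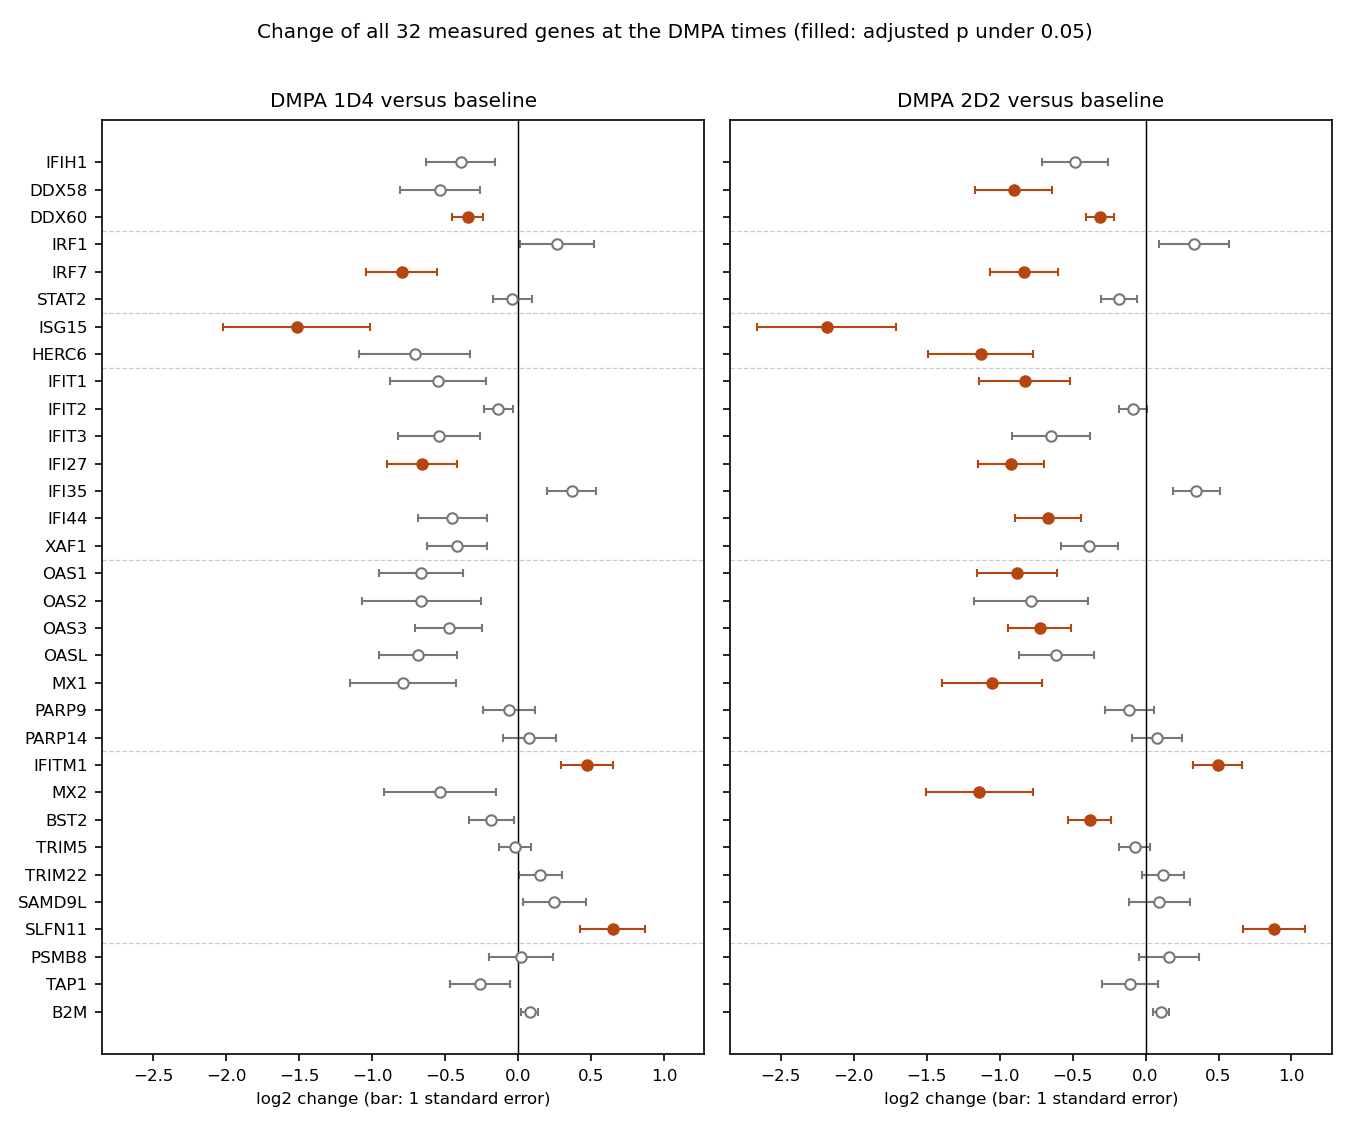
Log2 change from baseline of all 32 measured genes at DMPA 1D4 (left) and 2D2 (right); points are model estimates, bars 1 standard error, filled points passed at an adjusted p under 0.05, and dashed lines separate the roles. ISG15 lies farthest below 0 at both times (-1.52 and -2.19), while SLFN11 and IFITM1 lie above 0.

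ISG15 encodes a ubiquitin-like protein that is conjugated to other proteins and is also secreted. In the DMPA animals its baseline signal was 9.46 at the lowest, 11.61 at the median and 12.77 at the highest (n = 17). At 2D2 it was 8.42 in PHQ1, 8.39 in BB981, 10.24 in PPi2, 9.12 in BB0499, 8.94 in BB405, 8.81 in BB108, 8.97 in BB0540, 9.19 in BB521 and 11.39 in BB770. Of the 9 samples, 7 lay below every baseline sample of the arm, and PPi2 and BB770 lay within the baseline range, so the groups overlapped. The change was -2.19 (SE 0.48, adjusted p = 0.00134), a 4.55-fold lower signal. It was below 0 in all 9 animals, from -3.85 in BB981 to -0.27 in BB521.

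HERC6, a HERC-family ligase of the ISG15 system, was the other measured gene of that group. Its signal went from a baseline median of 10.31 (8.46 to 11.30) to a 2D2 median of 8.90 (7.95 to 10.48), with 2 of 9 samples below the baseline range. The change was -1.13 (SE 0.36, adjusted p = 0.0183). HERC6 was higher than the own baseline in BB521 (0.44) and BB770 (0.62) and lower in the other 7 animals, to -2.33 in PHQ1.

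Among the sensors of viral RNA, 2 of 3 fell. DDX58 encodes RIG-I, which recognises RNA with a 5' triphosphate. Its signal had a median of 9.22 at baseline (8.15 to 10.34) and 8.31 at 2D2 (7.87 to 9.45), and 3 of the 9 treated samples were below the baseline range. The change was -0.90 (SE 0.26, adjusted p = 0.0101) and was negative in 7 of 9 animals, BB521 (0.25) and BB770 (0.14) being above 0. DDX60, a helicase linked to RIG-I signalling, changed by -0.31 (SE 0.10, adjusted p = 0.0172), and its second probe set by -1.09 (adjusted p = 0.0276). IFIH1, which encodes the long-RNA sensor MDA5, had a change of -0.48 (SE 0.22) that did not pass (adjusted p = 0.0978).

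Of the 3 measured transcription factors, IRF7 fell and IRF1 and STAT2 did not pass. IRF7 amplifies interferon production and is itself interferon-induced. Its baseline signal in the DMPA animals was 7.25 to 9.79 with a median of 8.79, and at 2D2 it was 7.20 to 8.71 with a median of 7.72. The treated values sat in the lower part of the baseline range and only 1 lay below it. IRF7 changed by -0.83 (SE 0.23, adjusted p = 0.00770) and was lower than the own baseline in 9 of 9 animals, from -1.43 in PHQ1 to -0.05 in BB521. The second IRF7 probe set did not pass (-0.01, SE 0.15, adjusted p = 0.963), so the fall of IRF7 rests on 1 of 2 probe sets. STAT2, a subunit of the complex that carries the interferon signal, changed by -0.18 (SE 0.12), and IRF1, a factor induced mainly by interferon gamma, by 0.33 (SE 0.24).

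Of the 7 measured genes of the IFIT and IFI families and XAF1, 3 fell. IFIT1 binds viral RNA that lacks the host cap; it changed by -0.83 (SE 0.31, adjusted p = 0.0414) and was below the own baseline in 8 of 9 animals, to -2.58 in PHQ1. IFI27, an interferon-alpha-inducible protein of mitochondria, had a median of 12.82 at baseline (11.71 to 13.57). At 2D2 its median was 11.78, with PHQ1 lowest at 10.57 and BB770 highest at 12.51, and 4 of 9 samples were below the baseline range. IFI27 changed by -0.92 (SE 0.23, adjusted p = 0.00330), in the same direction in 9 of 9 animals. IFI44, a GTP-binding protein of this response, changed by -0.67 (SE 0.22, adjusted p = 0.0250), and none of its 2D2 samples left the baseline range. Its second probe set did not pass (-0.39, adjusted p = 0.111), so its fall rests on 1 of 2 probe sets.

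The other members of that group did not pass. IFIT3, the partner of IFIT1, changed by -0.65 (SE 0.27, adjusted p = 0.0633), and 1 of its other 2 probe sets passed with -0.79 (adjusted p = 0.0259). XAF1, a pro-apoptotic factor, had a change of -0.38 (SE 0.20), and IFIT2 of -0.08 (SE 0.10) with its 6 probe sets between -0.10 and 0.14. IFI35 differed in sign from its group, with 0.35 (SE 0.16, adjusted p = 0.0938).

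Of the 7 enzymes and effectors, OAS1, OAS3 and MX1 fell. OAS1, OAS2 and OAS3 sense double-stranded RNA and make the messenger that activates RNase L. OAS3 went from a median of 10.30 (9.36 to 11.17) to 9.50 (9.06 to 10.45), with 3 of 9 samples below the baseline range, a change of -0.72 (SE 0.21, adjusted p = 0.0117). OAS1 had a median of 11.13 at baseline (9.19 to 11.97) and 10.15 at 2D2 (8.67 to 11.35), with 1 sample below the baseline range. OAS1 changed by -0.88 (SE 0.27, adjusted p = 0.0157); of its other 4 probe sets, 1 passed with -0.89 (adjusted p = 0.0181), and the remaining 3 had changes of -0.43, 0.05 and 0.07. OAS2 had a change of -0.78 with a wider error (SE 0.39, adjusted p = 0.122), and the related OASL one of -0.61 (SE 0.26, adjusted p = 0.0677).

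MX1 encodes a dynamin-like GTPase that blocks many RNA viruses. In the DMPA animals its baseline ranged from 8.54 to 11.19 with a median of 9.50. At 2D2 it was 7.19 in PHQ1, 7.53 in BB108, 8.48 in BB0540, 8.61 in BB405, 8.71 in BB981, 8.82 in BB521, 9.16 in BB0499, 9.46 in BB770 and 9.71 in PPi2. The 3 samples PHQ1, BB108 and BB0540 were below the baseline range and the other 6 within it. The change was -1.05 (SE 0.35, adjusted p = 0.0215), with 7 of 9 animals lower and BB521 (0.28) and BB770 (0.07) higher than their own baseline. The ADP-ribosyltransferase genes PARP9 (-0.11, SE 0.17) and PARP14 (0.08, SE 0.17) did not pass.

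The 7 measured restriction factors were split: MX2 and BST2 fell, SLFN11 and IFITM1 rose, and TRIM5, TRIM22 and SAMD9L did not pass. MX2, which blocks nuclear entry of HIV-1, had a median of 8.22 at baseline (7.15 to 9.66) and 7.26 at 2D2 (5.97 to 8.35), with 4 of 9 samples below the baseline range. Its change was -1.14 (SE 0.36, adjusted p = 0.0189), in 8 of 9 animals; BB770 was at 0.39. The second MX2 probe set passed as well (-0.89, adjusted p = 0.0395). BST2, or tetherin, holds budding virions at the cell surface; its change of -0.38 (SE 0.15, adjusted p = 0.0446) was found in 8 of 9 animals, all 2D2 samples lay within the baseline range, and its second probe set changed by -0.47 (adjusted p = 0.0252).

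SLFN11 binds transfer RNA and limits the synthesis of HIV proteins. Its baseline in the DMPA animals ranged from 5.17 to 7.68 with a median of 6.54, and at 2D2 it was 8.16 in PHQ1, 7.87 in BB981, 7.78 in BB405, 7.61 in BB521, 7.33 in BB0499, 7.25 in BB0540, 6.95 in BB108, 6.67 in BB770 and 6.62 in PPi2. PHQ1, BB981 and BB405 were above every baseline sample, and the others overlapped the upper part of the baseline. SLFN11 rose by 0.88 (SE 0.21, adjusted p = 0.00276), in 9 of 9 animals. IFITM1, a membrane protein that hinders viral fusion, rose by 0.49 (SE 0.17, adjusted p = 0.0264), also in 9 of 9 animals, from 0.16 in PPi2 to 0.97 in BB521, and its second probe set by 0.57 (adjusted p = 0.0390).

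TRIM5, whose product binds the retroviral capsid, had 2D2 values of 6.83 to 7.97 beside a baseline of 6.90 to 8.12 in the same arm. Its change was -0.07 (SE 0.11, adjusted p = 0.6247), and 5 of 9 animals were below their own baseline. TRIM22 changed by 0.12 (SE 0.14) and SAMD9L by 0.10 (SE 0.21). The antigen-processing genes did not pass either. B2M, the light chain of MHC class I, was 12.82 to 13.28 at 2D2 and 12.81 to 13.35 at baseline, a change of 0.10 (SE 0.06, adjusted p = 0.146). The peptide transporter TAP1 changed by -0.11 (SE 0.20) and the immunoproteasome subunit PSMB8 by 0.16 (SE 0.21).

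**Figure D2:**
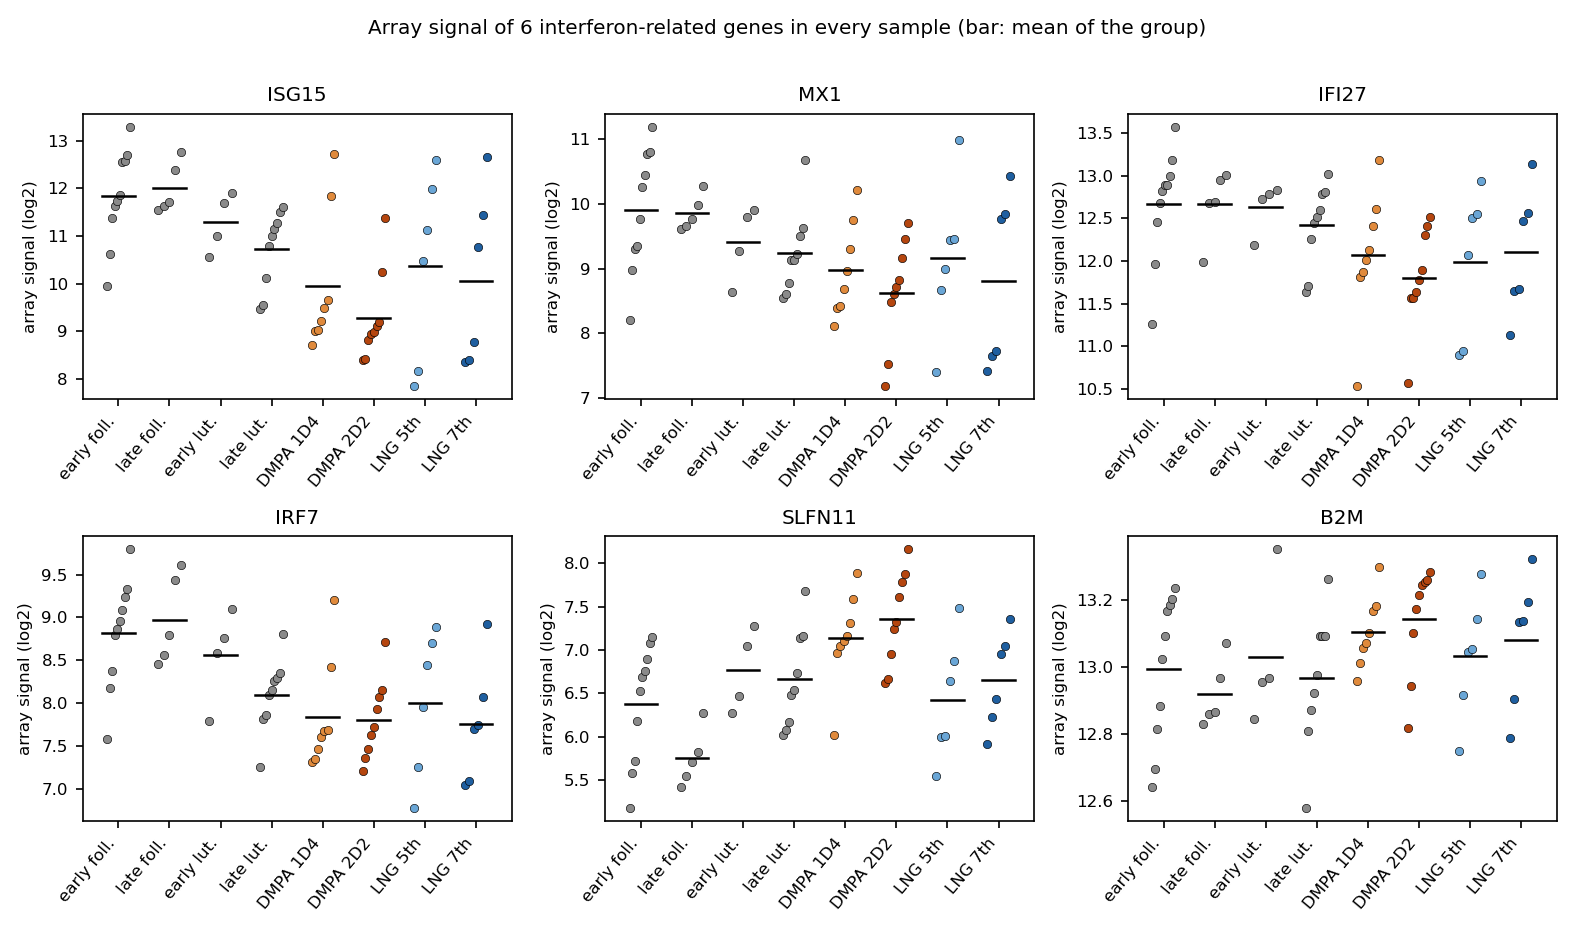
Array signal (log2) of ISG15, MX1, IFI27, IRF7, SLFN11 and B2M in each sample, by baseline phase and treated time; each point is 1 animal and each bar the mean of its group. ISG15 at DMPA 2D2 lies between 8.39 and 11.39, overlapping the baseline through 2 samples, while B2M spans less than 1 log2 unit over all samples.

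The animals did not move alike. At 2D2, 28 of the 32 genes were below the own baseline in BB405 and in BB108, 27 in BB0499, 26 in PHQ1, 25 in PPi2, 24 in BB0540 and 20 in BB981. In BB770 only 9 genes were lower and in BB521 only 6, and the median change there was 0.20 and 0.47. The other 7 animals had medians from -0.74 in BB0499 to -0.18 in PPi2. BB521 had 1 baseline sample, a late luteal one, which held the lowest baseline value of all 28 for 11 of the 32 genes.

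Beside these counts stand the other measures of the same samples. The mean of the upper squamous markers changed by 0.42 in PPi2 and -0.67 in BB770, and by -5.14 to -3.47 in the other 7, BB521 (-4.12) among them. The GAPDH 3' minus 5' difference rose in 8 of 9 animals, from 0.37 in BB108 to 1.91 in BB0540, and changed by -0.03 in BB770. The same difference from the actin control probe sets rose in 7 of 9 animals. Its mean change was 0.23, beside 0.74 for GAPDH. The part of these measures in the changes of the 32 genes was not tested, beyond the model with the GAPDH difference as a covariate. In that model, 0 of the 32 genes and 0 of the 31624 probe sets passed. There the median change of the 32 genes was 0.06.

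**Figure D3:**
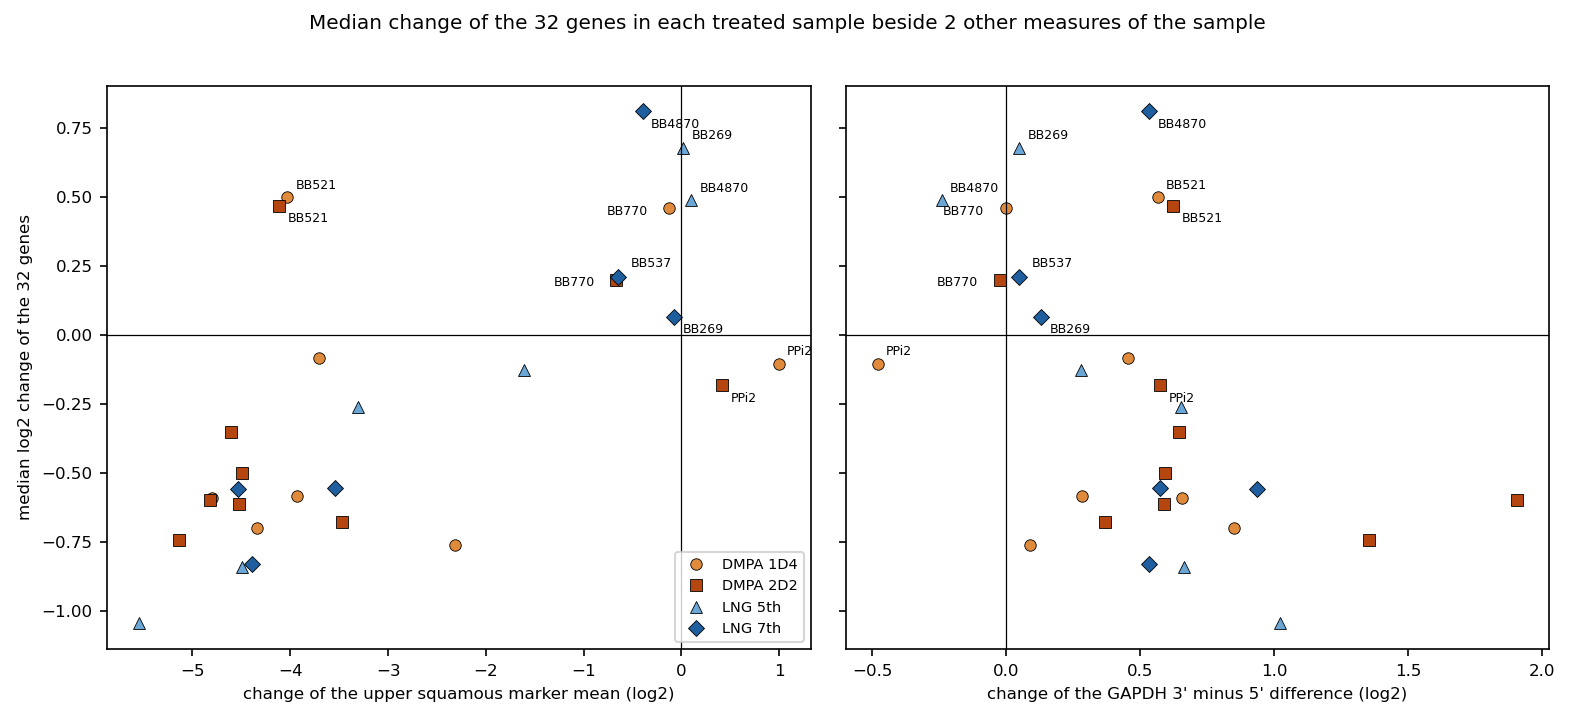
Median log2 change of the 32 genes from the own baseline in each treated sample (vertical) beside the change of the upper squamous marker mean (left) and of the GAPDH 3' minus 5' difference (right); each point is 1 sample, and labels name PPi2 and the animals whose median lay above 0. BB521 combines a marker change of -4.12 with a median of 0.47 at 2D2, and PPi2 a marker change of 0.42 with a median of -0.18.

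The count at 2D2 depended on the samples used as baseline and on the animals in the fit. Against the late luteal baseline alone, 0 of the 32 genes and 0 of all probe sets passed, with ISG15 at -1.14 (adjusted p = 0.429) and SLFN11 at 0.48 (adjusted p = 0.462). PHQ1, BB981 and BB405 have no late luteal sample and were left out of that fit, so baseline and animals changed together. The number of genes that fell was 6 without BB0499, 7 without PHQ1 and 8 without BB0540. The number that rose was 1 without any of BB0499, BB0540, BB521 or BB981. The share of all genes that passed in these fits with an animal left out is not given here.

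At 1D4, the earlier DMPA time, 4 of the 32 genes fell and 2 rose, while 14.1% of the named genes fell and 11.7% rose. The median change was -0.37, beside 0.01 for all named genes. ISG15, IRF7, IFI27 and DDX60 fell and SLFN11 and IFITM1 rose; all 6 also passed in the same direction at 2D2, where the baseline samples were the same.

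ISG15 at 1D4 was 8.70 in PHQ1, 8.995 in BB521, 9.02 in BB0540, 9.20 in BB405, 9.48 in BB0499, 9.65 in BB981, 11.84 in PPi2 and 12.73 in BB770. The samples formed a lower set of 6 and an upper pair, PPi2 and BB770, which lay at or above the baseline median. That pair are the 2 animals with the labelled dose of 0.5 at this time, and the 6 have 1.5 or 2.5. The change was -1.52 (SE 0.50, adjusted p = 0.0284), with PPi2 (0.72) and BB770 (0.54) above their own baseline. IRF7 changed by -0.80 (SE 0.24, adjusted p = 0.0191), lower in 6 of 8 animals. Its second probe set did not pass here either (-0.002, SE 0.15, adjusted p = 0.9925).

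IFI27 changed by -0.66 (SE 0.24, adjusted p = 0.0428), to -1.80 in BB405, and DDX60 by -0.35 (SE 0.10, adjusted p = 0.0178). SLFN11 rose by 0.65 (SE 0.22, adjusted p = 0.0327), with BB0499 (-0.14) and PPi2 (-0.11) below 0 and BB981 highest at 1.78. IFITM1 rose by 0.47 (SE 0.18, adjusted p = 0.0482), in 7 of 8 animals. MX1 (-0.79, SE 0.36, adjusted p = 0.107) and BST2 (-0.19, SE 0.15) did not pass, nor did TRIM5 (-0.02, SE 0.11) and B2M (0.08, SE 0.06).

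By animal, the number of lower genes at 1D4 ranged from 1 in BB770 and 8 in BB521 to 28 in BB405. Upper squamous markers changed by 1.00 in PPi2 and -0.13 in BB770 at this time and by -4.80 to -2.31 in the other 6; their part was not tested. The calls at 1D4 were few and moved with single animals. The number that fell was 0 without BB0540 or PHQ1, 1 without BB0499 or BB981, 2 without BB405 and 7 without BB770, and the number that rose was 0 without BB0540, BB521, BB770, BB981 or PHQ1 and 1 without BB0499 or BB405. Without the animal block 2 fell and 0 rose, with array weights 12 fell, and with the GAPDH covariate or the late luteal baseline alone 0 passed. These counts are given without the share of all genes that passed in the same fit.

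With 2D2 and 1D4 set directly against each other, none of the 32 genes passed (limma; 0% of the named genes passed, and 0 of the 32 had an unadjusted p under 0.05). The differences farthest from 0 were those of ISG15 (-0.67, SE 0.57), MX2 (-0.60, SE 0.43) and HERC6 (-0.42, SE 0.43). A steeper fall of ISG15 at 2D2 is therefore not shown.

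Labelled DMPA dose was read as a linear term at 2D2, with 3 animals per dose. In this fit an animal's level came from its baseline and any 1D4 sample together, so the slope is not that of the change from baseline alone. None of the 32 genes passed (limma; 0% of the named genes; 0 of the 32 at an unadjusted p under 0.05). The slopes farthest from 0, in log2 per unit of labelled dose, were HERC6 (-0.49, SE 0.41), OAS2 (-0.45, SE 0.45) and MX1 (-0.44, SE 0.40). ISG15 had a slope of -0.26 (SE 0.55), and within the dose labelled 0.5 its change already ranged from -2.76 in BB108 to -0.80 in BB770.

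The same term at 1D4, added after the values by dose had been seen, gave no gene past the threshold either (limma; 0% of the named genes; 3 of the 32 at an unadjusted p under 0.05, beside 8.18% of the named genes). ISG15 changed by 0.63 on average at 0.5 (SD 0.13, n = 2), by -1.67 at 1.5 (SD 1.09, n = 3) and by -2.56 at 2.5 (SD 0.52, n = 3). Its slope of -1.21 (SE 0.58, adjusted p = 0.6235) was the farthest from 0. Here the 2D2 sample also set each animal's level, so these slopes are not those of the changes from baseline alone. MX2 had mean changes of 0.85, -0.83 and -1.09 and OAS1 of 0.27, -0.55 and -1.33 at the 3 doses in the same order, with slopes of -0.73 (SE 0.45) and -0.58 (SE 0.34). SLFN11 had a slope of -0.09 (SE 0.27). Of the 32 slopes, 28 were below 0. Their median was -0.29, beside 0.005 for all named genes. The share of all named genes with a slope below 0 is not given here, so this count does not show that the 32 genes stand out. With any of the 8 animals left out, 0 passed. PPi2 and BB770, the animals at 0.5, were also those whose upper squamous markers changed by 1.00 and -0.13, beside -4.80 to -2.31 in the others, and dose and that measure cannot be told apart here.

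**Figure D4:**
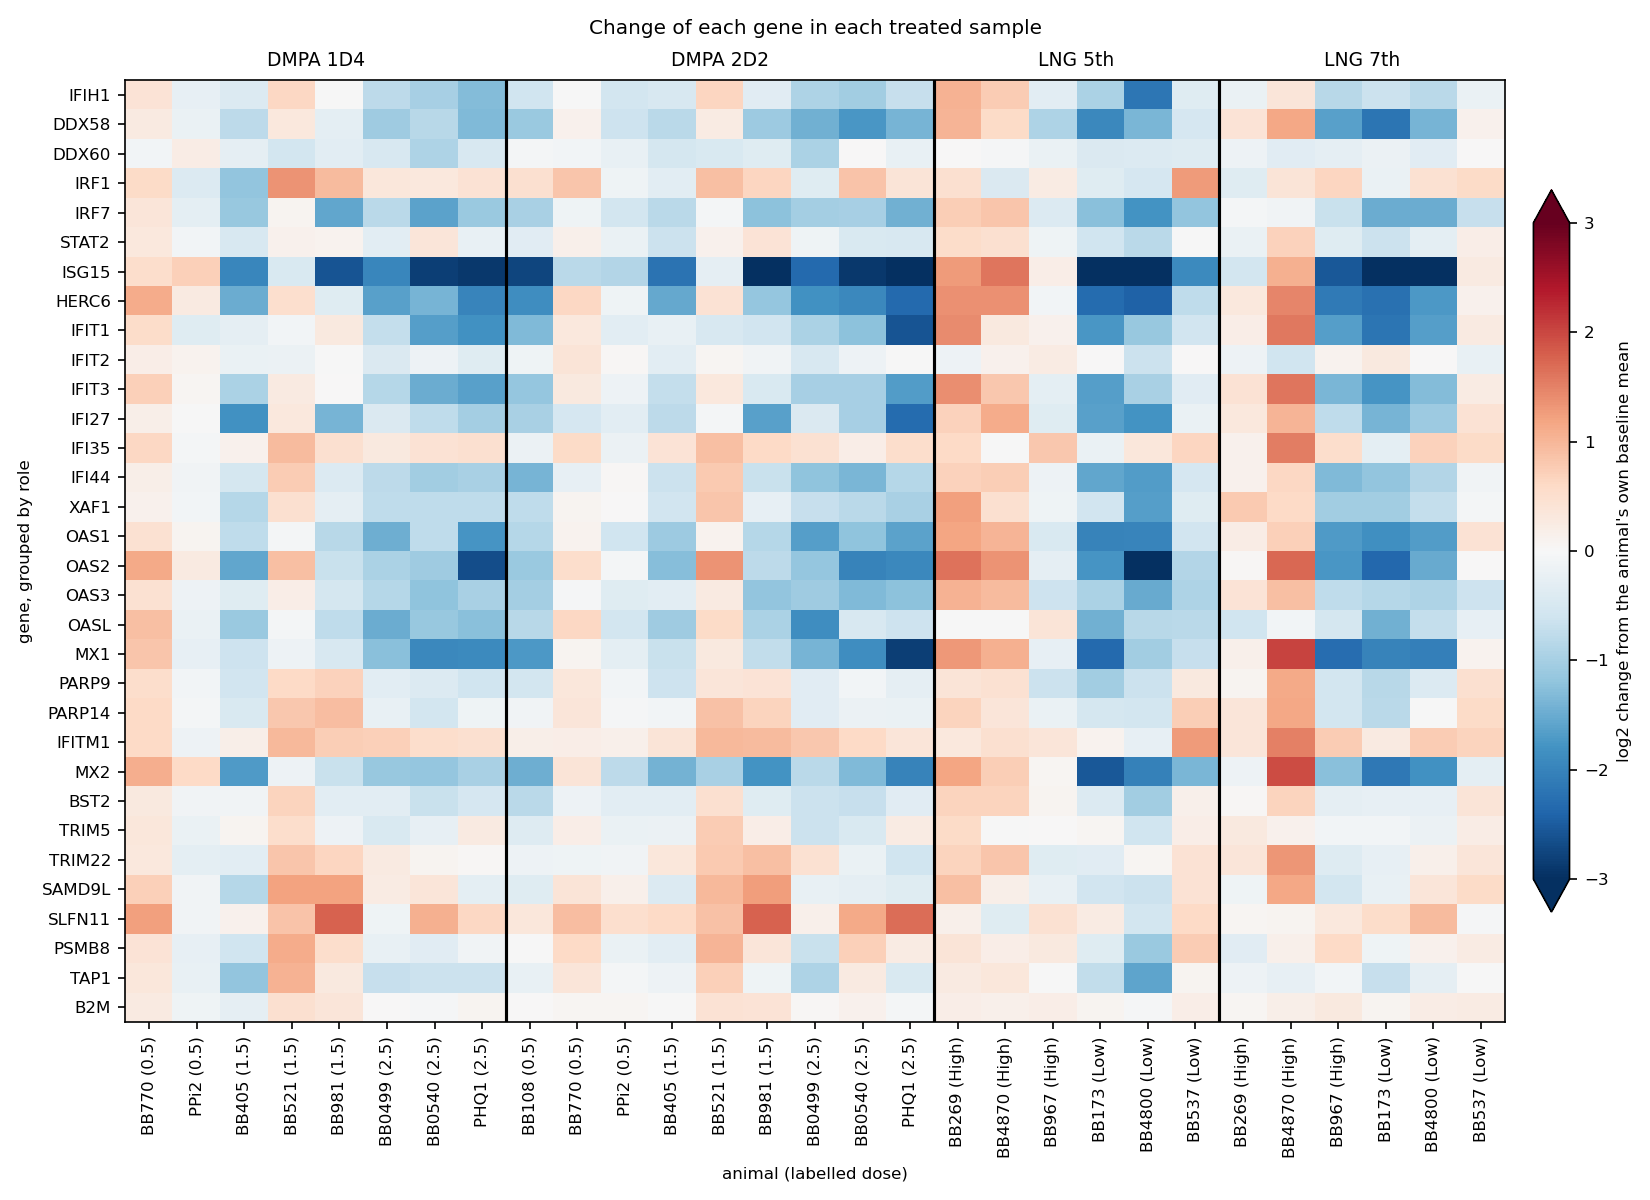
Log2 change of each of the 32 genes from the own baseline mean in each treated sample, with animals ordered by labelled dose within each time; blue is lower, red higher, and the colour scale ends at 3 in either direction. ISG15 is the deepest blue row in most DMPA samples, BB521 and BB770 stand out from the other DMPA animals, and at the LNG 5th time BB269 and BB4870 are mostly red where BB173 and BB4800 are mostly blue.

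In the LNG arm the 5th sample of BB4800 stood apart: the mean of its 4 measured basal squamous markers was 8.66, where the other 5 samples of that time lay between 11.60 and 11.98 and the lowest baseline sample at 11.64. No gene of the 32 passed at the 5th time (limma, 0% of the named genes passed). At an unadjusted p under 0.05 there was 1 of the 32, beside 24.3% of the named genes. The median change was -0.24, beside -0.02 for all named genes. ISG15 was 7.85 in BB173, 8.16 in BB4800, 10.48 in BB537, 11.12 in BB967, 11.98 in BB4870 and 12.60 in BB269, where the baseline of the arm ran from 9.94 to 13.30. The 2 lowest samples were below the baseline and the others within it. Its change of -1.04 (SE 0.59, adjusted p = 0.299) joined animals that went opposite ways, from -4.08 in BB173 to 1.61 in BB4870. Without BB4800 the change of ISG15 was -0.58 (SE 0.64) and the median of the 32 genes 0.01.

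The next largest changes at the 5th time were those of MX2 (-0.65, SE 0.45) and OAS2 (-0.59, SE 0.48). MX1 ranged from 7.40 in BB173 to 10.996 in BB269, and IFI27 from 10.90 in BB173 to 12.93 in BB269. IRF7 was lowest in BB4800 (6.77) and highest in BB269 (8.88). The same 2 animals, BB173 and BB4800, were lowest for ISG15, and BB269 was highest for ISG15 as well. BST2 (10.27 to 11.62), TRIM5 (6.88 to 7.96), SLFN11 (5.54 to 7.49) and B2M (12.75 to 13.28) had narrower ranges or another order of animals.

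The animals labelled High and Low were compared at the 5th time, 3 animals against 3. In this fit an animal's level came from its baseline and its later LNG sample together. The fitted differences are therefore not those of the changes from baseline alone. None of the 32 genes passed (limma, 0% of the named genes), but 17 had an unadjusted p under 0.05, all 17 higher in High, beside 16.8% of the named genes. The median difference was 0.99 for the 32 genes and 0.04 for all named genes. Of the 32 differences, 31 were above 0 and 1 below it, beside 45.4% of all named genes below 0. ISG15 had a fitted difference of 3.76 (SE 0.94, adjusted p = 0.108). Its change from the own baseline was 1.61, 1.28 and 0.19 in the High animals and -1.92, -3.20 and -4.08 in the Low animals, so the groups did not overlap. These changes averaged 1.03 in High and -3.06 in Low. The next fitted differences were those of OAS2 with 2.601 (SE 0.80, adjusted p = 0.142) and HERC6 with 2.40 (SE 0.75, adjusted p = 0.142).

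Without BB4800 the difference of ISG15 was 3.90 (SE 1.06, adjusted p = 0.806), and the median of the 32 genes 0.70. With array weights, 11 of the 32 genes passed in this comparison, ISG15 with 4.27 (adjusted p = 0.00380), and without BB537, 1 did. The share of all genes that passed in these 2 fits is not given here, so the counts do not show that the 32 genes stand out. The 5th array of BB4870, a High animal, was the only array of that time with the unexplained (A-). The High and Low animals differed in other measures too. The upper squamous markers changed by 0.10 in BB4870, 0.02 in BB269 and -1.61 in BB967, and by -3.31 in BB537, -4.49 in BB173 and -5.55 in BB4800. The means of the stromal lists changed as well, smooth muscle from -0.42 in BB4870 to 5.46 in BB4800, fibroblast from -0.09 in BB4870 to 2.84 in BB537, and endothelium upward in 6 of 6. The GAPDH difference changed by -0.24, 0.05 and 0.28 in the High animals, in the same order. It changed by 0.65, 0.66 and 1.02 in the Low animals, in the same order as well. The actin difference overlapped between the groups, with -0.02, 0.11 and 0.10 in High and 0.22, 0.08 and -0.14 in Low, in these orders. BB4870 had also held the lowest baseline value for 15 of the 32 genes in its early follicular sample, and BB173 the highest for 12 in its own. The part of these measures in the difference was not tested, and they cannot be told apart from the labelled dose with 3 animals each.

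At the 7th time none of the 32 genes passed (limma, 0% of the named genes). At an unadjusted p under 0.05 there were 5 of the 32, beside 25.4% of the named genes. IFITM1 came nearest, with 0.70 (SE 0.21, adjusted p = 0.0672), above the own baseline in 6 of 6 animals, from 0.26 in BB173 to 1.50 in BB4870. It passed without BB269, with array weights and with the phases as separate groups. ISG15 had a change of -1.34 (SE 0.59, adjusted p = 0.158), with values of 8.35 in BB4800, 8.39 in BB967, 8.78 in BB173, 10.76 in BB269, 11.45 in BB4870 and 12.65 in BB537. The samples BB4800, BB967 and BB173 were below the baseline of the arm and the other 3 within it. IRF7 (-0.73, SE 0.28, adjusted p = 0.119) and HERC6 (-0.71, SE 0.44, adjusted p = 0.319) followed. MX1 ranged from 7.41 in BB967 to 10.43 in BB4870, and IFI27 from 11.13 in BB173 to 13.13 in BB537. BST2 lay between 10.82 and 11.86, TRIM5 between 7.29 and 7.96, and SLFN11 between 5.92 and 7.36, and all 3 overlapped the baseline of the arm.

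Animals of the LNG arm changed places between the times. In BB967 (High), 19 of the 32 genes were below the own baseline at the 5th time and 25 at the 7th, and ISG15 went from 0.19 to -2.54. In BB537 (Low), 18 genes were lower at the 5th time and 10 at the 7th, and ISG15 went from -1.92 to 0.26. The upper squamous markers moved from -1.61 to -3.54 in BB967 and from -3.31 to -0.65 in BB537. The unexplained (A-) ran with part of this: it stands on the 7th array of BB537 and not on its 5th. At the 7th time the 3 animals with a median change above 0 (BB537, BB269 and BB4870) have it, as does BB173 with a median of -0.83, and BB967 and BB4800, without it, had -0.55 and -0.56. Its part was not tested beyond leaving these arrays out, after which 0 of the 32 passed at the 7th time. With the 7th and 5th times set directly against each other, none of the 32 genes passed (limma; 0% of the named genes; 0 of the 32 at an unadjusted p under 0.05), with MX1 (-0.35, SE 0.48), IFITM1 (0.34, SE 0.24) and IFIT1 (-0.31, SE 0.43) farthest from 0.

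The changes at DMPA 2D2 and LNG 5th, which share no animals, were also compared directly. None of the 32 genes differed past the threshold (limma, 0% of the named genes). At an unadjusted p under 0.05 there was 1 of the 32, beside 9.22% of the named genes. That gene was SLFN11, higher after DMPA by 0.79 (SE 0.33, adjusted p = 0.533). ISG15 (-1.15, SE 0.76) and MX1 (-0.72, SE 0.55) had the other differences farthest from 0. Without BB4800 that of ISG15 was -1.61 (SE 0.80), and 0 passed. A fall of these genes that is particular to DMPA is therefore not shown.

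Before treatment, the 32 genes varied between animals and phases. ISG15 had the widest spread over the 28 baseline samples (SD 0.96) and B2M the narrowest (SD 0.19). Mean ISG15 signal was 11.83 in the early follicular phase (SD 1.01, n = 10), 12.01 in the late follicular (SD 0.54, n = 5), 11.30 in the early luteal (SD 0.62, n = 4) and 10.72 in the late luteal phase (SD 0.82, n = 9). The ranges of the phases overlapped.

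None of the 32 genes differed past the threshold between the luteal and follicular phases, where 3.31% of the named genes did. At an unadjusted p under 0.05 there were 6 of the 32, beside 27.3% of the named genes. Of these 6, 4 were lower and 2 higher in the luteal phases. MX2 had -1.12 (SE 0.32, adjusted p = 0.0709), ISG15 -0.84 (SE 0.40, adjusted p = 0.205) and SLFN11 0.73 (SE 0.24, adjusted p = 0.0949). MX2 averaged 8.69 (SD 1.07, n = 10) in the early and 8.88 (SD 0.70, n = 5) in the late follicular samples. It averaged 7.65 (SD 0.64, n = 4) in the early and 7.91 (SD 0.46, n = 9) in the late luteal ones. Without BB405, 2 of the 32 genes passed as lower, and the share of all genes in that fit is not given here.

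Between the late luteal and early follicular phases, 0.152% of the named genes passed and none of the 32 did. Here 6 had an unadjusted p under 0.05, 5 of them lower in the late luteal phase, beside 24% of the named genes. ISG15 had -0.97 (SE 0.45, adjusted p = 0.225), IFIT1 -0.68 (SE 0.34, adjusted p = 0.253) and MX1 -0.66 (SE 0.35, adjusted p = 0.283). When the treated samples shared the fit, 8 of the 32 passed as lower, IRF7 (-0.87, adjusted p = 0.0175) and ISG15 (-1.60, adjusted p = 0.0357) among them. The share of all genes that passed in that shared fit is not given here.

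Neighbouring phases gave no gene past the threshold and 0% of the named genes in each comparison. Late against early follicular had IRF1 (-0.54, SE 0.54), SLFN11 (-0.49, SE 0.39) and IFITM1 (-0.47, SE 0.30) farthest from 0, and 0 of the 32 at an unadjusted p under 0.05. Early luteal against late follicular had MX2 (-1.63, SE 0.63), SLFN11 (1.01, SE 0.46) and OAS2 (-0.73, SE 0.60). Of these, MX2 and SLFN11 had an unadjusted p under 0.05, beside 8.38% of the named genes. Late against early luteal had MX2 (0.98, SE 0.59), IRF1 (0.86, SE 0.60) and IFITM1 (0.69, SE 0.33), and 0 at an unadjusted p under 0.05.

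Other genes of the pathway were read from 5 further lists at DMPA 2D2. At that time 14.1% of all named genes fell and 17.2% rose, and the counts per list are to be read beside these shares. Of 9 listed interferon ligands, 4 had a probe set matched to them and 1 of these was above the filter. This was IFNK, the interferon of keratinocytes, with a baseline of 5.76 to 11.05 (median 6.99) over all 28 samples and 3.71 to 6.50 (median 5.49) at 2D2. IFNK changed by -2.18 (SE 0.39, adjusted p = 0.000287), lower in 9 of 9 animals, from -3.93 in BB981 to -0.70 in BB521. The 2D2 median lay under the filter value of 5.53 and the lowest array median of 6.07. The size of the fall is thus read at low signal. At 1D4 IFNK changed by -1.86 (SE 0.42, adjusted p = 0.00487), lower in 8 of 8. At the LNG 5th time IFNK was above the own baseline in BB269 (0.77) and BB4870 (1.47) and below it in the other 4 animals.

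Of 6 measured receptor and kinase genes, IFNLR1, a chain of the type III interferon receptor, fell at 2D2 (-0.32, SE 0.11, adjusted p = 0.0299) and none rose. JAK2 had 0.61 (SE 0.43) at 2D2 and rose at 1D4 (1.46, SE 0.45, adjusted p = 0.0198). Of 12 genes of the induction pathway, 3 rose: the endosomal sensor TLR7 (0.28, SE 0.07, adjusted p = 0.00263), the adaptor MAVS (0.28, SE 0.09, adjusted p = 0.0238) and IRF5 (0.39, SE 0.15, adjusted p = 0.0433). TLR9, the DNA sensor of that family, fell (-0.23, SE 0.09, adjusted p = 0.0427).

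Of 9 targets of interferon gamma, the chemokines CXCL10 (-1.58, SE 0.55, adjusted p = 0.0301) and CXCL11 (-0.84, SE 0.17, adjusted p = 0.000659) fell and none rose. GBP1 (-0.11, SE 0.26), CIITA (0.26, SE 0.14) and IDO1 (0.46, SE 0.50) did not pass. Of 12 other antiviral factors, the nuclease ISG20 (-0.75, SE 0.24, adjusted p = 0.0189), TRIM14 (-0.60, SE 0.16, adjusted p = 0.00713) and SERINC5, which lowers the infectivity of HIV (-0.43, SE 0.16, adjusted p = 0.0365), fell. The DNA sensor IFI16 (0.24, SE 0.07, adjusted p = 0.0128) and CNP (0.15, SE 0.05, adjusted p = 0.0211) rose, and APOBEC3C and APOBEC3H did not pass.

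**Figure D5:**
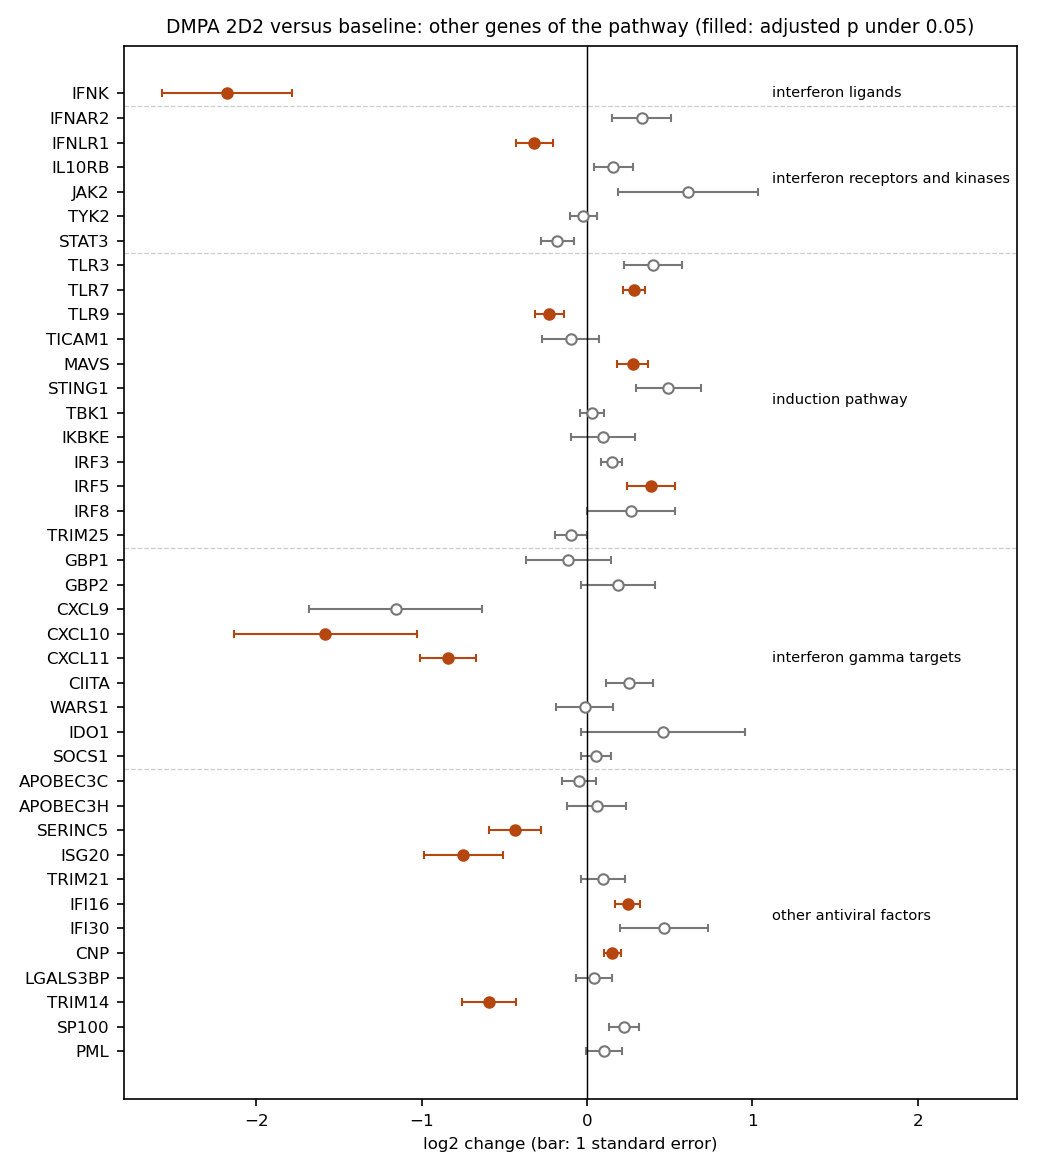
Log2 change from baseline at DMPA 2D2 of the measured genes of 5 other lists of the interferon pathway; points are model estimates, bars 1 standard error, and filled points passed at an adjusted p under 0.05. IFNK lies at -2.18 and CXCL10 at -1.58, while the changes of the induction pathway lie between -0.23 and 0.49.

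Markers of immune cells, which can carry interferon-stimulated transcripts, were read at the same time and stand beside the same shares of all named genes. At 2D2, of 8 measured macrophage and dendritic markers TYROBP rose (0.91, adjusted p = 0.0179) and CLEC10A fell (-0.20, adjusted p = 0.0233), and 0 of 3 natural killer, 0 of 2 T cell and 0 of 4 B and plasma cell markers passed. Of 2 neutrophil markers, S100A12 fell (-3.04, SE 0.48, adjusted p = 0.000155) and CSF3R did not pass (0.35, SE 0.25). Of the plasmacytoid dendritic list only TCF4, IRF8 and GZMB were measured, none of them specific to that cell, and none passed. The mean of the macrophage and dendritic markers ranged from 7.53 to 9.12 at baseline and from 8.14 to 9.18 at 2D2. Of 4 measured basal squamous markers, ITGA6 and ITGB4 rose and DSG3 fell, and 5 of 5 columnar markers rose with a median of 1.122. The part of these cell types in the changes of the 32 genes was not tested.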

How the data were processed

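RNA of 57 biopsy samples was read on 58 Affymetrix rhesus macaque arrays; the one sample hybridised on a pair of arrays entered as their mean. The deposited values are log2 signals per probe set, made by the authors with affy and Partek, per the submitters' processing notes. The background correction and normalization are not given in the sources used here. From 52865 probe sets, 158 control probe sets were removed, and those under the 40th percentile of mean signal (5.53) were dropped, leaving 31624. Changes were fitted in limma 3.58.1 (R 4.3.3, statmod 1.5.0) with the animal as a block, and p-values were adjusted by Benjamini-Hochberg over these probe sets. The treated comparisons used all 57 samples with the baseline phases pooled, and the phase comparisons the 28 baseline samples. Deviations from the group means had a median correlation of 0.306 within an animal (81 pairs), beside -0.03 between animals. The fits were tested on simulated data. The number of arrays limits the precision. In each limma test the estimated change was set against the residual variation left after the animal block. Levels in every sample or their range are given for genes past the threshold (up to 8 per comparison), for ISG15, MX1, IFI27, IRF7, BST2, TRIM5, SLFN11 and B2M, and changes for the 3 farthest from 0 where none passed. The genes and lists were chosen with earlier results of these data known. Alternatives were another filter, other normalizations, probe set rules, block, array weights, a GAPDH covariate, other baselines and leaving out animals.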

Additional observations from a re-analysis of the deposited data

Results flagged for a closer look

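Of 204 groups of 4 to 10 samples of 17 named genes, 11 held a sample far from the others; chance alone gives about 1 in 20. At baseline, DDX60 was lowest in the late luteal sample of PPi2 (8.54) and in the early luteal sample of BB981 (9.07), and HERC6 in the early follicular sample of BB4870 (8.53, the next being 10.10). The early luteal sample of BB173 was far below the others for IFI27 (12.19) and OAS3 (9.60), and the late follicular sample of BB269 for IFITM1 (11.37). MX1 was highest in the late luteal sample of BB0499 (10.68, the next being 9.62).

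After treatment, PHQ1 was far below the other 2D2 samples for IFI27 (10.57, the next being 11.57) and BB770 for IFITM1 (12.47). The change of MX2 at 2D2 was 0.39 in BB770 and at most -0.79 in the other 8 animals. BST2 at the LNG 7th time was highest in BB537 (11.86, the next being 11.08).

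Of the 17 named genes, 3 had every High animal above and every Low animal below its own baseline at the LNG 5th time. These were ISG15 (fitted difference 3.76), MX2 (2.14) and IFIT1 (1.41). In that fit the later LNG sample also set each animal's level. The share of all measured genes that split this way was not computed, so the 3 are not shown to stand out. The limma test of the difference did not pass for any of them.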

How the results depend on the processing

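Of 640 counts recomputed under the alternatives, 592 stayed within 1.5 times the reported count and 48 moved; of 460 pairs of a called gene and an alternative, 340 kept the call, 119 lost it and 1 reversed (OAS1 at 2D2, 0.001 with the GAPDH covariate, adjusted p = 0.9995). The cause was not tested. The fit with the late luteal baseline alone used fewer samples. It held neither PHQ1, BB981 and BB405 of the DMPA arm nor BB173, BB537 and BB4800 of the LNG arm. That baseline left 0 higher and 0 lower at both 2D2 and 1D4, as did the GAPDH covariate. At 2D2, 1 gene was higher with the filter at the 60th percentile. Leaving out 1 animal gave 1 to 2 higher and 6 to 15 lower genes at 2D2, and 0 to 2 higher and 0 to 7 lower at 1D4. DDX58, IRF7, ISG15, IFI27, OAS3 and SLFN11 passed at 2D2 in all 9 of these fits. The call of IRF7 rests on 1 of its 2 probe sets.

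With no replicate block, 1 gene was higher and 11 lower at 2D2, and 0 higher and 2 lower at 1D4. The samples are paired within animals, so the block is part of the reported fit.

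At 1D4, 1 gene was higher without a filter, at the 60th percentile, with arrays centred on their median and with a random block, and 12 were lower with array weights. At LNG 7th, array weights gave 2 higher, separate phases 1, and leaving out 1 animal 0 to 1. For High against Low, array weights gave 11 and leaving out 1 animal 0 to 1. For luteal against follicular, the random block gave 1 higher and 2 lower, array weights 1 lower, and leaving out 1 animal 0 to 2 lower. For late luteal against early follicular, the random block gave 1 lower and the fit shared with treated times 8. The counts of this section are given without the share of all genes that passed in the same fit. Arrays read dim genes less precisely, and 3 animals per dose limit the dose comparisons.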
